A study of Mus musculus with 4 samples.

Results

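The genes described here encode the protein parts of the spliceosomal small nuclear ribonucleoproteins (snRNPs) and their assembly factors. They were chosen by name as 41 genes, and all 41 were found among the 54532 genes of the deposited table, each with 1 identifier and each annotated as protein coding. They fall into 7 roles, and the lowest count of any of them in a library was 86, so all 41 passed the filter on low counts that left 16368 genes for the test.

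The spliceosome removes introns from pre-mRNA. Each of its U1, U2, U4 and U5 particles carries a small nuclear RNA wrapped by a ring of Sm proteins, which the SMN complex loads in the cytoplasm, while the U6 RNA carries a related ring of LSm proteins. U1 marks the 5′ end of an intron, U2 with its SF3A and SF3B partners marks the branch point, and the tri-snRNP of U4, U6 and U5 then joins and is rearranged into the catalytic centre. PTBP1, the target of the knockdown, is a splicing repressor that binds pyrimidine-rich RNA. U2AF, which recruits U2, binds the same kind of tract.

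Mouse astrocytes were treated with NC siRNA, which the deposited table names as the control, or with Ptbp1 siRNA, 2 libraries each. The sources used here do not give the strain, age or sex of the animals, the time after treatment or the purity of the cultures, and the siRNA duplexes are known only by these names. The labels leave it unsaid whether replicates were grown apart, so a p-value here covers the spread among these 4 samples, and that spread may be technical. Gene counts totalled between 14557844 and 16009248 per library.

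The targeted gene Ptbp1 stood at 300.4 and 295 CPM (the count of a gene scaled to its library's total) under NC siRNA and 203 and 196 CPM in the Ptbp1 siRNA libraries, a log2 fold change of -0.58 (SE 0.063) that passed edgeR's test (adjusted p = 0.00127). Over 10 astrocyte markers the summed level was 2286 and 2171 CPM in the NC siRNA libraries and 2250.1 and 1989 CPM in the Ptbp1 siRNA libraries. Markers of other cells were present too, with sums between 5434 and 6388 CPM over 8 fibroblast and mural genes, 926 and 979 CPM over 10 microglia and macrophage genes, 323 and 357 CPM over 8 oligodendrocyte lineage genes, 245 and 261 CPM over 8 neuronal genes, 331 and 369 CPM over 5 ependymal genes, and 56.5 and 68.4 CPM over 5 endothelial genes, of which Cldn5 was at 0. Library NC siRNA 2 stood apart in the sum over 5 choroid plexus genes, at 423 CPM against 54.1 to 70.1 CPM in the other libraries. The sum over 12 proliferation genes was 726 and 674 CPM in the NC siRNA libraries and 742 and 658 CPM in the Ptbp1 siRNA libraries. Fewer cells of a type and less RNA per cell cannot be told apart in such bulk samples.

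None of the snRNP protein genes passed the test when Ptbp1 was lowered. Summed over all 41 genes, the level was 4485 and 4498 CPM in the NC siRNA libraries and 4519 and 4572 CPM in the Ptbp1 siRNA libraries, and their share of all counts lay between 0.449% and 0.455% in the 4 libraries. No member passed an adjusted p of 0.05 in edgeR's quasi-likelihood test with Benjamini-Hochberg adjustment over all genes, where 0.0244% of tested genes did and 0.00611% did so with a higher level. DESeq2 also called 0 members. With limma on log2(FPKM + 1) no member could stand out, since it called 0 genes over the whole table. Even Ptbp1 did not pass there (limma adjusted p = 0.485). At an edgeR unadjusted p under 0.05 there was 1 member, Snrpe, which was higher with Ptbp1 siRNA. Over all tested genes 3.98% reached that p, and 1.69% did so with a higher level. DESeq2 also gave 1 member at that level, where 0.512% of its 29505 genes reached it. Those are all genes with a count, without the filter on low counts, so this share and the 3.98% cover different sets of genes. On the filtered genes limma gave 1 member, where 4.67% of the genes reached that level. The median log2 fold change of the members was 0.02 against 0.00036 over all genes tested. The log2 fold change was positive in 28 members and negative in 13, against 8210 and 8158 of all genes tested. Without NC siRNA 1 the median of the members was -0.015.

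The intervals of the fold change cover the spread among these 4 libraries only, which may be technical. They do not cover reads shared with other genes, and so set no bound on the effect of the siRNA. For 27 of the 41 genes the 95% interval of the fold change lay within 1.2-fold in either direction, and for 39 within 1.5-fold. The intervals of Snrpe and Lsm5 reached further. The groups did not overlap in 16 members (9 higher and 7 lower with Ptbp1 siRNA), which is 39.0% of them, against 31.5% of all tested genes. Apart from Snrpe, every member had an edgeR adjusted p that rounds to 1.00.

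**Figure D1:**
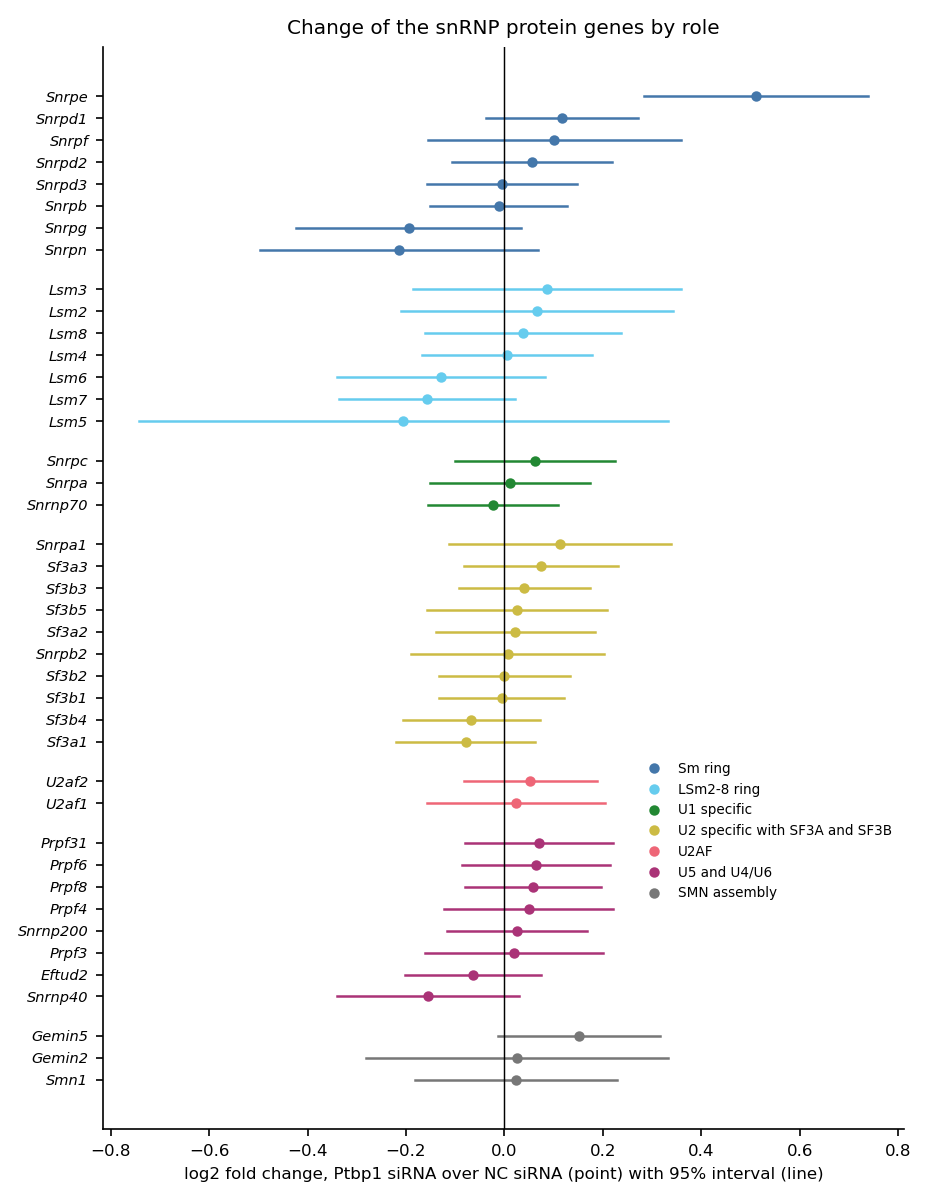
The log2 fold change of each of the 41 genes (points; Ptbp1 siRNA over NC siRNA, x axis) with its 95% interval (lines), grouped and coloured by role on the y axis. Only the interval of Snrpe, from 0.28 to 0.74, lies wholly to one side of 0.

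The Sm ring consists of SmB or its relative SmN, SmD1, SmD2, SmD3, SmE, SmF and SmG, which close around the snRNA in a fixed order. Among its 8 genes 4 had a positive and 4 a negative log2 fold change, between -0.21 and 0.51, and 1 reached an unadjusted p under 0.05. The gene at the upper end was Snrpe, which encodes SmE.

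Snrpe (ENSMUSG00000090553; GRCm38 chr1:133603871-133610291, minus strand) had 589 and 453 counts with NC siRNA and 750 and 654 counts with Ptbp1 siRNA. Scaled to library size these were 36.7 and 30.2 CPM against 51.7 and 43.9 CPM. The groups did not overlap, although the libraries of each group were themselves up to 0.28 apart on the log2 scale. The mean was 33.5 ± 4.62 CPM in the NC siRNA group and 47.8 ± 5.50 CPM in the Ptbp1 siRNA group (SD, n = 2), and this difference did not pass the test: the log2 fold change was 0.51 (SE 0.108, 95% interval 0.28 to 0.74), a fold of 1.42 with an interval from 1.22 to 1.67. The edgeR unadjusted p was 0.000216, the 9th smallest of the 16368 genes, and the adjusted p was 0.393. The members, with Snrpe among them, were chosen with earlier results of these data known, so this rank is no independent support. In the authors' deposited table Snrpe had a log2 fold change of 0.51, a p of 0.000745 and an adjusted p of 1.00.

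The call on Snrpe depended on the fit. It was called with an adjusted p of 2.5e-05 without NC siRNA 1 and 0.000172 without Ptbp1 siRNA 2, with log2 fold changes of 0.66 and 0.63. Without NC siRNA 2, the library with the lowest Snrpe level and with the high choroid plexus sum, the log2 fold change was 0.38 (adjusted p = 0.133, edgeR), and without Ptbp1 siRNA 1, the library with the highest level, it was 0.39 (adjusted p = 0.291, edgeR). With no filter on low counts it was 0.51 with an edgeR adjusted p of 0.000344. Fits without a library or with no filter gave every gene the trended spread alone, since the prior degrees of freedom became infinite.

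**Figure D2:**
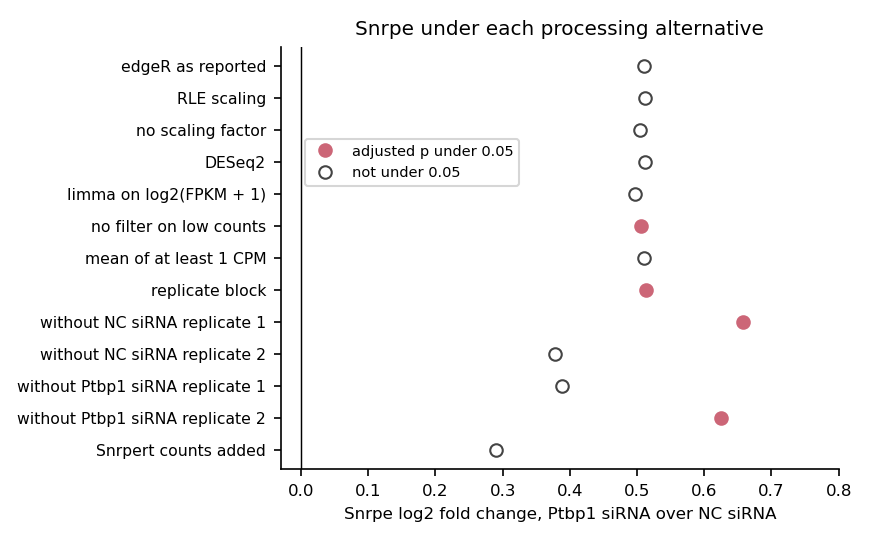
The log2 fold change of Snrpe (x axis; Ptbp1 siRNA over NC siRNA) under each processing alternative (y axis), with filled points where the adjusted p was under 0.05. All values are positive, between 0.29 and 0.66, and 4 of the 12 alternatives called the gene.

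Snrpe has a near-identical copy that was counted as a gene of its own, Snrpert on chromosome 2, which the deposited table annotates as a processed pseudogene of SmE. A read that lies wholly within letters they share could come from either locus. Of the 230 stretches of 50 bases in the Snrpe coding sequence, 128 occur unchanged in Snrpert, which is 55.7%. Of the stretches of all annotated Snrpe transcripts, untranslated parts included, Snrpert holds 8.93%. The sources used here do not give the read length.

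The counts of the copy differed in the other direction. Snrpert had 192 and 186 counts with NC siRNA and 84 and 155 counts with Ptbp1 siRNA, or 12.0 and 12.4 CPM against 5.79 and 10.4 CPM. The groups did not overlap for the copy either, and it did not pass the test (log2 fold change -0.59, SE 0.216, edgeR unadjusted p = 0.0152, adjusted p = 1.00). Of the counts of both loci together, Snrpe held 75.4% (95% Wilson interval 72.3% to 78.3%) and 70.9% (67.3% to 74.3%) in the NC siRNA libraries. In the Ptbp1 siRNA libraries it held 89.9% (87.7% to 91.8%) and 80.8% (78.0% to 83.4%). These intervals cover counting error only. The 2 groups of shares did not overlap, which follows from the separated levels of Snrpe and Snrpert given above. The exact two-sided permutation test over the 4 libraries gave p = 0.333, the smallest that 2 against 2 can give. Those levels fixed this p in advance, so it adds no support.

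Added together, Snrpe and Snrpert stood at 48.7 and 42.6 CPM in the NC siRNA libraries and 57.4 and 54.3 CPM in the Ptbp1 siRNA libraries. The sum was still higher in both Ptbp1 siRNA libraries, by a smaller amount than Snrpe alone: its log2 fold change was 0.29 (SE 0.0869), with an edgeR unadjusted p of 0.00419 and an adjusted p of 1.00. Adding copies was chosen after the data were seen. Whether reads were placed on the wrong locus was not tested.

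Snrpg, the gene of SmG (ENSMUSG00000057278; chr6:86371304-86379328, plus strand), also has such a copy. Its coding sequence between chr6:86371583-86378783 is letter for letter the transcript of Gm8186 (chr17:26098991-26099221, minus strand, GENCODE M21), an intronless gene annotated as protein coding in the deposited table, so that it is shown once.
Snrpg: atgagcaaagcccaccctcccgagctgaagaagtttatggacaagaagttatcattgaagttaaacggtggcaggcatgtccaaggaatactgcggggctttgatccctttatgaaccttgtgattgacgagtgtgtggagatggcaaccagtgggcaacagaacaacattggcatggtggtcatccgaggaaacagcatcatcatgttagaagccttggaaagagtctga
All 182 stretches of 50 bases in these 231 bases occur at both loci. Of the stretches of all annotated Snrpg transcripts, Gm8186 holds 11.3%. Snrpg stood at 43.1 and 56.3 CPM in the NC siRNA libraries and 44.8 and 42.0 CPM in the Ptbp1 siRNA libraries, with NC siRNA 2 above the other libraries. Gm8186 stood at 13.0, 5.67, 11.2 and 22.6 CPM in the same order, lowest in NC siRNA 2 and highest in Ptbp1 siRNA 2, the reverse of Snrpg. Their sum was 56.1 and 62.0 CPM in the NC siRNA libraries and 56.0 and 64.6 CPM in the Ptbp1 siRNA libraries. The log2 fold change of Snrpg was -0.19 (SE 0.108, edgeR adjusted p = 1.00) and that of the sum was 0.03 (SE 0.0870). That of Gm8186 was 0.85 (SE 0.305, edgeR unadjusted p = 0.0128), with overlapping groups, and it did not pass the test after adjustment. Without NC siRNA 2 that of Snrpg alone was 0.0091.

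None of the other Sm ring genes reached an unadjusted p under 0.05. Snrpb, which encodes SmB and had the highest level of the ring, stood at 183 and 197 CPM in the NC siRNA libraries and 190.2 and 187 CPM in the Ptbp1 siRNA libraries, with overlapping groups (log2 fold change -0.01, SE 0.0658). Snrpn encodes SmN, a close relative of SmB that is made mainly in the brain from the paternal allele. It stood at 16.5 and 17.5 CPM in the NC siRNA libraries and 14.6 and 14.7 CPM in the Ptbp1 siRNA libraries, lower in both libraries, and its log2 fold change was -0.21 (SE 0.133; adjusted p = 1.00 in edgeR). Gm38393, annotated on the same strand across the Snrpn locus, had 103 and 81 counts with NC siRNA and 70 and 66 with Ptbp1 siRNA. Gm38393 holds 21.2% of the stretches of all annotated Snrpn transcripts. Snurf, the upstream reading frame of the same locus, was at 0 counts in every library. All stretches of Snurf also lie in Snrpn transcripts, so its 0 counts cannot show whether Snurf was expressed.

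Snrpd1, the gene of SmD1, stood at 66.7 and 70.4 CPM in the NC siRNA libraries and 73.6 and 75.1 CPM in the Ptbp1 siRNA libraries, higher in both libraries, and its log2 fold change was 0.12 (SE 0.0729; adjusted p = 1.00 in edgeR). Snrpd2, Snrpd3 and Snrpf, the genes of SmD2, SmD3 and SmF, had log2 fold changes of 0.06, -0.0045 and 0.10. Other genes hold 89.5% of the 50-base stretches of all annotated Snrpf transcripts, with 58.5% in Ccdc38 on the opposite strand. Those other genes had few counts: 3 to 17 per library in Ccdc38 and 18 to 30 in the pseudogene Gm13092.

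**Figure D3:**
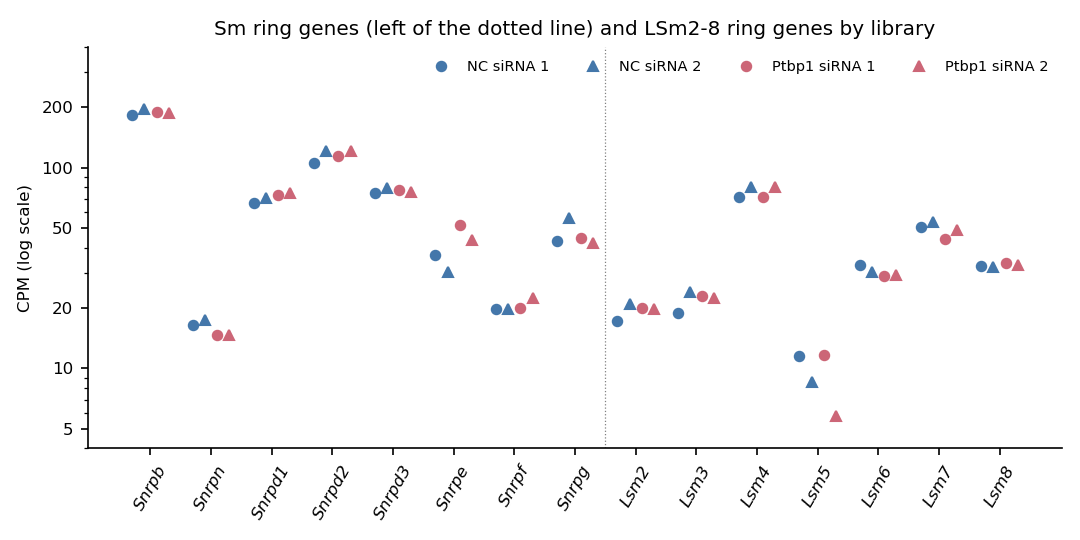
Levels of the 8 Sm ring genes and the 7 LSm ring genes in CPM on a log scale (y axis), with 1 point per library, coloured by siRNA and shaped by replicate number. The Ptbp1 siRNA points of Snrpe lie at 51.7 and 43.9 CPM, above its NC siRNA points at 36.7 and 30.2 CPM, and the Lsm5 points of replicate number 2 lie below those of number 1 in each group.

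The LSm ring binds the end of U6 RNA and helps it pair with U4. None of its 7 genes reached an unadjusted p under 0.05, and their log2 fold changes lay between -0.21 and 0.09, with 4 positive and 3 negative. Lsm4 and Lsm7 had the highest levels per length. Lsm4 stood at 71.5 and 79.9 CPM in the NC siRNA libraries and 71.7 and 80.2 CPM in the Ptbp1 siRNA libraries, a log2 fold change of 0.0057 (SE 0.0812). Lsm3 stood at 18.9 and 24.0 CPM and at 22.9 and 22.5 CPM, with the NC siRNA libraries on either side of the Ptbp1 siRNA ones.

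Lsm5 varied more between libraries of a group than any other member. It stood at 11.5 and 8.60 CPM in the NC siRNA libraries and 11.7 and 5.77 CPM in the Ptbp1 siRNA libraries, a gap of 1.02 on the log2 scale within the Ptbp1 siRNA group. Its pseudogenes Gm7846 (chr1:28580499-28580772) and Gm10074 (chr17:36226023-36226271) together stood at 6.74, 12.7, 5.51 and 11.1 CPM in the same order, high where Lsm5 was low. The sum of the 3 genes was 18.2 and 21.3 CPM in the NC siRNA libraries and 17.2 and 16.8 CPM in the Ptbp1 siRNA libraries, and the widest gap within a group was 0.22 in the sum. Gm7846 holds 77.1% of the 50-base stretches of the Lsm5 coding sequence and 18.7% of those of all annotated Lsm5 transcripts. The log2 fold change was -0.21 for Lsm5 alone (SE 0.253) and -0.21 for the sum (SE 0.13, edgeR unadjusted p = 0.122). Leaving out Ptbp1 siRNA 2 turned that of Lsm5 alone to 0.22, and leaving out Ptbp1 siRNA 1 gave -0.80 (edgeR unadjusted p = 0.000872, adjusted p = 0.163).

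Lsm7 stood at 50.4 and 53.4 CPM in the NC siRNA libraries and 44.4 and 48.7 CPM in the Ptbp1 siRNA libraries, lower in both libraries (log2 fold change -0.16, SE 0.0844, edgeR adjusted p = 1.00). Without Ptbp1 siRNA 1 the log2 fold change was -0.092, and without Ptbp1 siRNA 2 it was -0.23. Its pseudogene Gm10146 (chr10:78393320-78393628, plus strand) stood at 5.49, 8.60, 7.51 and 10.1 CPM in the order of the libraries. Gm10146 holds 98.9% of the stretches of the Lsm7 coding sequence and 14.1% of those of all annotated Lsm7 transcripts. The sums of Lsm7 and Gm10146 overlapped between the groups, at 55.9 and 62.0 CPM with NC siRNA and 51.9 and 58.8 CPM with Ptbp1 siRNA. The log2 fold change of the sum was -0.09 (SE 0.0863). In all, 9 copies at other loci held at least 50% of their own stretches in common with 8 members. The copies of Snrpd2 and Sf3b4 had at most 9 counts in a library.

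**Figure D4:**
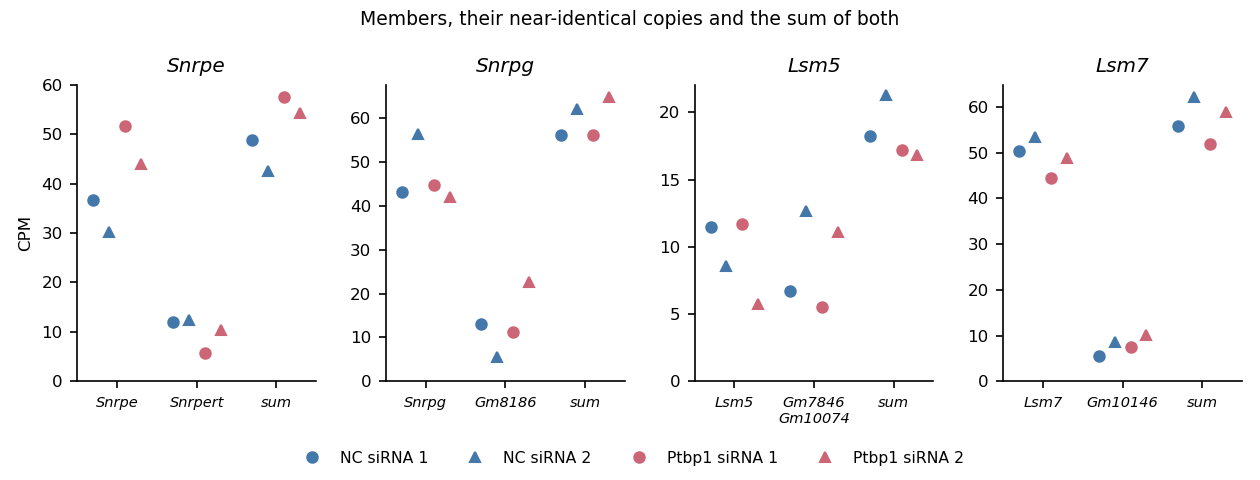
Levels in CPM (y axis) of Snrpe, Snrpg, Lsm5 and Lsm7, of their near-identical copies, and of the sum (x axis), with 1 point per library, coloured by siRNA and shaped by replicate number. For Snrpe, Snrpg and Lsm5 the widest gap between libraries of a group was smaller in the sum than in the member (0.19 against 0.28, 0.21 against 0.39 and 0.22 against 1.02 on the log2 scale), and for Lsm7 it was larger (0.18 against 0.14).

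The U1 particle has 3 proteins of its own, encoded by Snrnp70, Snrpa and Snrpc. None of the 3 had groups that stood apart. Snrnp70 stood at 251 and 248 CPM in the NC siRNA libraries and 240.3 and 251 CPM in the Ptbp1 siRNA libraries. Snrpa stood at 56.1 and 54.8 CPM and at 55.9 and 56.0 CPM, and Snrpc at 62.9 and 68.8 CPM and at 70.3 and 67.2 CPM. The log2 fold changes were -0.02 (SE 0.0626), 0.01 (SE 0.0765) and 0.06 (SE 0.0770).

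The U2 group holds the products of Snrpa1 and Snrpb2, which bind U2 RNA as a pair, and the SF3A and SF3B proteins that clamp the branch point. The log2 fold changes of its 10 genes lay between -0.08 and 0.11, and none reached an unadjusted p under 0.05. Sf3b1, the large scaffold subunit, had the highest counts of all members and stood at 449 and 451 CPM in the NC siRNA libraries and 446 and 451 CPM in the Ptbp1 siRNA libraries. Sf3b2 stood at 335 and 316 CPM and at 326 and 326 CPM, with both Ptbp1 siRNA libraries between the NC siRNA ones. For both of these genes the 95% interval of the fold change lay between 0.912 and 1.1.

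Snrpa1 was at the upper end of the U2 group, at 28.2 and 33.9 CPM in the NC siRNA libraries and 34.5 and 32.5 CPM in the Ptbp1 siRNA libraries (log2 fold change 0.11, SE 0.107). Sf3a1, a subunit of SF3A, was at the lower end, at 143 and 137 CPM and at 135 and 129.6 CPM (log2 fold change -0.08, SE 0.0669). Sf3b4, which contacts the RNA near the branch point, stood at 136 and 132 CPM and at 128 and 128 CPM. The groups of Sf3a1 and Sf3b4 did not overlap, both lower with Ptbp1 siRNA, and the edgeR adjusted p of each was 1.00. Sf3a2 and Sf3a3 did not overlap either, both higher with Ptbp1 siRNA (log2 fold changes 0.02 and 0.07). In all, 40% of the U2 group did not overlap, against 31.5% of all tested genes.

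U2AF reads the 3′ end of the intron, its large subunit (U2af2) on the pyrimidine tract and its small subunit (U2af1) on the AG that follows. U2af2 stood at 307 and 329.5 CPM in the NC siRNA libraries and 324 and 336 CPM in the Ptbp1 siRNA libraries, with overlapping groups (log2 fold change 0.05, SE 0.0640). U2af1 stood at 77.1 and 90.8 CPM and at 80.8 and 89.7 CPM (log2 fold change 0.02, SE 0.0855). Its pseudogene Gm10232 had 133 to 187 counts per library, and the sum of both had a log2 fold change of 0.03.

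Among the 8 genes of the U5 and U4/U6 particles the log2 fold changes lay between -0.15 and 0.07, with 6 positive. Prpf8, the scaffold of the catalytic centre, stood at 386 and 351 CPM in the NC siRNA libraries and 386 and 382 CPM in the Ptbp1 siRNA libraries. Prpf6, a bridge of the tri-snRNP, stood at 133 and 120.3 CPM and at 130.4 and 135 CPM, and Prpf31, which holds U4 RNA, at 81.7 and 83.7 CPM and at 84.6 and 89.0 CPM. NC siRNA 2 was the lowest library for Prpf8 and Prpf6, and Prpf31 was higher in both Ptbp1 siRNA libraries.

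Snrnp40, a WD-repeat protein of U5, was at the lower end of that group, at 44.9 and 45.6 CPM in the NC siRNA libraries and 38.7 and 42.6 CPM in the Ptbp1 siRNA libraries. It was lower in both libraries, and its log2 fold change was -0.15 (SE 0.0873, 95% interval -0.34 to 0.03, edgeR adjusted p = 1.00). It was -0.087 without Ptbp1 siRNA 1 and -0.22 without Ptbp1 siRNA 2. Snrnp200, the helicase that unwinds U4 from U6, and Eftud2, the GTPase of U5, had log2 fold changes of 0.03 and -0.06.

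The SMN complex loads Sm proteins onto snRNA. Its central gene Smn1 stood at 38.4 and 39.0 CPM in the NC siRNA libraries and 36.0 and 42.6 CPM in the Ptbp1 siRNA libraries, with the Ptbp1 siRNA libraries on either side. Gemin5, which recognises the snRNA, stood at 68.7 and 61.4 CPM and at 73.1 and 71.6 CPM, higher in both libraries (log2 fold change 0.15, SE 0.0777, 95% interval -0.01 to 0.32, edgeR adjusted p = 1.00). With all 4 libraries this was the largest positive log2 fold change after that of Snrpe, but without NC siRNA 2 it was 0.073, below the 0.27 of Lsm3 and the 0.25 of Snrpa1, and without NC siRNA 1 it was 0.23. Gemin2, the SMN partner that holds the open Sm ring, had one of 0.03 (SE 0.145).

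Beyond these members, 81 other genes of the spliceosome and of snRNP assembly were counted, of which 80 were tested and Gemin4 was too low. None of them could pass with limma, which called 0 genes over the whole table. None passed an adjusted p of 0.05 with edgeR or DESeq2, and 0 had an unadjusted p under 0.05 in edgeR. Their median log2 fold change was 0.01, with 45 positive and 35 negative values between -0.20 and 0.35. The smallest unadjusted p of the list was that of Snrnp35, a protein of the minor spliceosome, at 8.42 and 7.94 CPM in the NC siRNA libraries and 10.6 and 10.3 CPM in the Ptbp1 siRNA libraries (log2 fold change 0.35, SE 0.171, edgeR unadjusted p = 0.0568).

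In each other sub-list the gene with the smallest p is named. Prmt5, the methyltransferase that modifies Sm proteins before assembly, had the smallest p among SMN complex and biogenesis genes, at 187 and 189.6 CPM in the NC siRNA libraries and 199.7 and 210.3 CPM in the Ptbp1 siRNA libraries (log2 fold change 0.12, SE 0.0643). For the helicases Dhx15 and Dhx16 the log2 fold changes were -0.10 (SE 0.0618) and 0.15 (SE 0.0793), and for Ppil1, a cyclophilin of the activated spliceosome, -0.15 (SE 0.0870). Snu13, which binds U4 RNA, had 0.11 (SE 0.0670), Lsm10, an Sm-like protein of the U7 particle, 0.18 (SE 0.121), and Prpf40b, a U1-associated protein, 0.07 (SE 0.0863). Each of these had an edgeR adjusted p of 1.00.

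Levels between genes were compared per length, on the deposited FPKM averaged over the 4 libraries. The 41 genes spanned 6.15 FPKM for Lsm2 to 100.3 FPKM for Sf3b2, a 16.3-fold range with a median of 22.2 FPKM. The Sm proteins occur once each in a ring, but their genes differed in level: Snrpb stood at 95.3, Snrpd1 at 84.9 and Snrpd2 at 44.1 FPKM. Below them Snrpg and Snrpe stood at 29.5 and 29.5 FPKM, Snrpf at 23.7, Snrpd3 at 22.2 and Snrpn at 7.29 FPKM. Snrpe, Snrpg and Snrpf exchanged places between libraries, from 21.9 to 37.5 FPKM for Snrpe, from 26.6 to 35.7 FPKM for Snrpg and from 22.7 to 26.0 FPKM for Snrpf.

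The order depends on the length used. For 37 of the 41 genes the deposited gene length exceeds the longest coding transcript in GENCODE M21; for Snrpe it is 1372 bases against 669. The LSm genes ranged from 6.15 FPKM for Lsm2 to 72.7 FPKM for Lsm4. Both U2AF genes were high, at 86.5 FPKM for U2af1 and 78.4 FPKM for U2af2, while the SMN assembly genes lay between 6.98 and 15.0 FPKM.

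**Figure D5:**
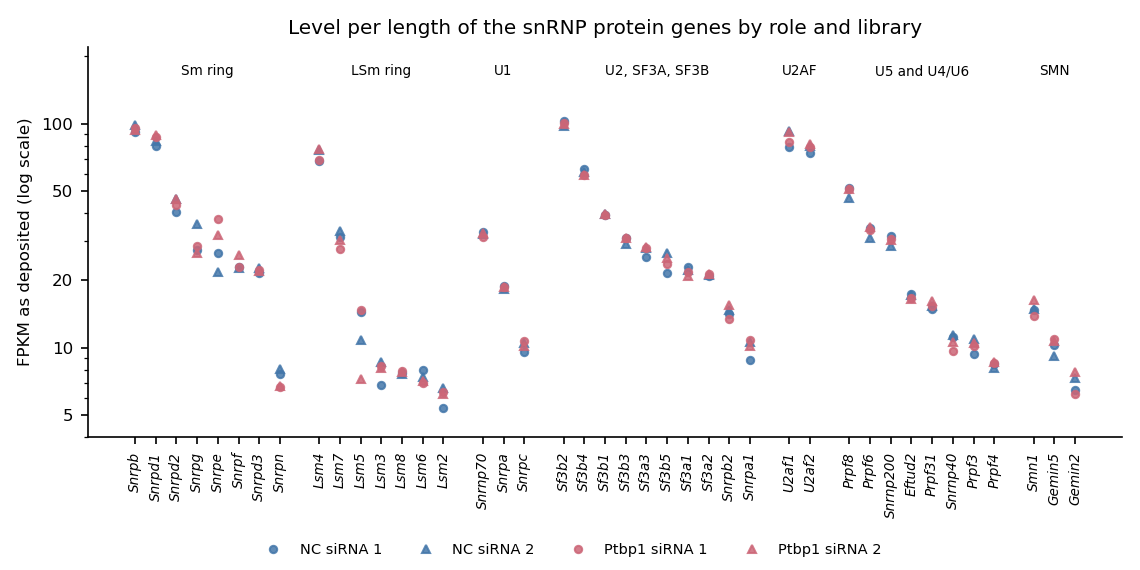
Deposited FPKM on a log scale (y axis) of the 41 genes, grouped by role and ordered by mean level (x axis), with 1 point per library, coloured by siRNA and shaped by replicate number. The means of the genes run from 6.15 to 100.3 FPKM, and the libraries of Snrpe from 21.9 to 37.5 FPKM.

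Promoter sequence from RefSeq (GRCm38.p6, windows of 300 bases, 250 before and 50 after the start) was matched for 33 of the 41 genes in 44 windows. These windows were rich in CpG, with a median of 23 against 7 in all 32851 windows and 13 in those of protein-coding genes. All letters were searched on both strands. CCGGAAG, the core bound by ETS factors, occurred in 15 member windows. That is 34.1%, against 8.86% of all windows and 11.6% of those of protein-coding genes. These shares count windows, not genes, and windows of a gene can overlap. The Sf3b2 windows nearly coincide, and each holds these letters. The SP1 letters GGGCGG occurred in 54.5% of member windows, against 35.7% of all and 46.2% of protein-coding ones. TATAAA occurred in 6.82%, against 13.6% and 12.6%, and CCAAT in 34.1%, against 37.4% and 38.2%. The Snrpe window (chr1:133610231-133610530, minus strand) is shown because that gene's log2 fold change was farthest from 0. It holds the ETS letters on both strands in 1 overlapping palindrome, in capitals.
Snrpe promoter: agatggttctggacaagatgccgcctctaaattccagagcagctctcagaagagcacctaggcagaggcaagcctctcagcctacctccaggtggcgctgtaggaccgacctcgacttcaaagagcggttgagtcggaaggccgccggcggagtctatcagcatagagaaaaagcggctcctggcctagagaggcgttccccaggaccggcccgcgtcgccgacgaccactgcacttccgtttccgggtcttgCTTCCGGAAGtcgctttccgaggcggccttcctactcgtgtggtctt
The windows of Snrpf and Snrpg held 0 and 1 match.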

How the data were processed

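Per the file headers, the authors deposited whole-number counts per gene and library, FPKM per library, a group mean of scaled counts (a signal, not used here), a log2 fold change and p-values for their own comparison. Per the submitters' processing notes the builds are GRCm38 and mm10, 2 names of 1 assembly. No source used here names the aligner, counting tool, strand setting or annotation release. The library size behind the deposited FPKM equals the size factor times the geometric mean total.

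The two-sided quasi-likelihood test of edgeR 4.0.16 (R 4.3.3) was run on the counts with TMM scaling, filterByExpr and the siRNA as the only term. Adjustment ran over all 16368 genes tested. The fit had 2 residual and 14.0 prior degrees of freedom. Standard errors come from the quasi-F statistic. Alternatives used limma 3.58.1, DESeq2 1.42.0, other scalings and filters, and left out each library.

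Shared 50-base stretches were counted over GENCODE M21 transcripts on both strands. The test was checked on simulated counts. The coding sequence of Snrpe and the sequence of its copy are not reported here.

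Genes named with full values were Ptbp1, Snrpe, members with an unadjusted p under 0.05, the 2 highest and the extreme members of each role, the 3 with the widest gap within a group and, per sub-list of the wider spliceosome, the smallest p. Further members are named to complete a role, and the copies after their values were seen. The members and lists were chosen with earlier results of these data known.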

Additional observations from a re-analysis of the deposited data

How the results depend on the processing

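The number of genes called over the whole table was 4; it was 0 with limma on log2(FPKM + 1), 50 when low counts were not filtered, 36 with the replicate number as a block and 34 to 75 without a library. The members called, 0 as reported, were 1 with no filter and 1 with the replicate block, Snrpe each time, and 0 to 1 without a library. Members with an unadjusted p under 0.05 were 2 with no filter, 4 with the block and 1 to 3 without a library, where 3.58%, 6.54% and 3.65% to 6.12% of all tested genes reached it. The labels do not say that a replicate number marks a shared culture or day. Over 11832 genes the deviations of same-numbered libraries correlated at 0.16, and with the block Snrpe had a log2 fold change of 0.51 and an edgeR adjusted p of 7.6e-05. The log2 fold change of Snrpe was 0.51 with no filter and 0.38 to 0.66 without a library. With fewer libraries, 25 to 34 members had groups that do not overlap, as did 62.9% to 67.6% of all tested genes, and the member median was -0.015 to 0.042.

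With all libraries kept, Snrpg turned from -0.19 to 0.032 with copies added. The other turns started near 0: Lsm4 was -0.00058 with no scaling factor, and Sf3b2 -0.0061 with no scaling factor, -0.00010 with DESeq2 and -0.0054 with no filter. Without a library, log2 fold changes that turned ranged from -0.081 to 0.27 for Lsm3, -0.077 to 0.087 for Lsm4, -0.80 to 0.22 for Lsm5, -0.0082 to 0.14 for Prpf6, -0.0079 to 0.13 for Prpf8 and -0.043 to 0.042 for Sf3b2. They ranged from -0.10 to 0.14 for Smn1, -0.053 to 0.0062 for Snrnp70, -0.0045 to 0.026 for Snrpa, -0.018 to 0.25 for Snrpa1 and -0.065 to 0.041 for Snrpb. They ranged from -0.0040 to 0.13 for Snrpc, -0.38 to 0.0091 for Snrpg, -0.093 to 0.15 for U2af1 and -0.00029 to 0.10 for U2af2. Without turning, log2 fold changes moved by over 1.5 times for Gemin5 (0.073 to 0.23), Snrnp40 (-0.22 to -0.087), Lsm7 (-0.23 to -0.092), Prpf31 (0.033 to 0.11), Snrpd1 (0.077 to 0.16) and Sf3a1 (-0.11 to -0.046). The cause was not tested. No gene named after a member with the ending -ps was found, so that alternative was not run. Lsm5 had the lowest counts of the members, with 86 to 184 per library.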
